A study of Mus musculus with 2 samples.

Results

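The DNA replication and S phase genes of the newborn mouse lens were compared between a lens-specific Foxp1 knockout and a control. The list holds 52 genes, from origin recognition to chromatin assembly, chosen by name with earlier results of these data known. Of these, 50 could be measured, out of 14254 measured genes among the 20655 genes named on the arrays. The CKO group was lens labelled as Foxp1 knockout and the WT group was lens of control litter mates. Each group had 1 Agilent 1-colour array, both were of postnatal day 0, and both were of mixed C57BL/6 background. Foxp1-flox/flox with Pax6-L-Cre stands in the treatment text of the CKO sample and of the WT sample alike, so the genotype labels were used to tell the groups apart. The labels give the control as wild-type, and they do not say whether lenses of several animals were pooled or in which lens cells this Cre acts. With 1 array a group, the differences have no replicate check and no p-value is given. The arrays shared 1 slide, so effects of genotype and of the position on the slide cannot be told apart.

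Replication starts at origins marked by the origin recognition complex, onto which Cdc6 and Cdt1 load the MCM helicase. Kinases and the factors Cdc45 and GINS then switch the helicase on, and polymerases, a sliding clamp and the single-strand binder RPA copy the strands. Ribonucleotide reductase and thymidylate enzymes supply the nucleotides, and histone chaperones pack the new DNA. Many of these genes are transcribed in bursts as cells enter S phase, largely under E2F transcription factors. In the lens, dividing cells lie in the anterior epithelium, and fibre cells leave the cell cycle as they differentiate.

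The arrays carried the marks of lens tissue, and Foxp1 read lower on the CKO array. All 9 lens fibre markers were measured, with signals of 7545 to 412263 on the CKO array and 6232 to 430153 on the WT array, and their median difference was -0.038 on the log2 scale. The brightest of 3 Foxp1 probes read 969.9 on the CKO array and 3460.2 on the WT array, and whether these probes lie in the deleted exons was not analysed here. Dim probes read low on the CKO array, and 56.9% of its gene spots passed the scanner's background test, against 67.5% on the WT array. An E1A spike-in RNA added to both samples read 38.0 on the CKO array against 80.2 on the WT array, a difference of -1.06, whereas one at 266 (CKO) and 280.4 (WT) differed by -0.065 and the next brighter, at 485 (CKO) and 566 (WT), by -0.21. The 5 spike-ins above these lay between -0.050 and 0.015. Of the 50 measured replication genes, 36 lay at or above the median signal of all measured genes, which was 350.01, and are called brighter below, and 14 lay below it. Repeat spots, from probes present 5 times or more per array, gave the technical error. Its SD for 1 spot at the signal of a gene was divided by the square root of the number of measured probes of that gene. The result, called spot SD below, ran from 0.081 to 0.28 for these genes and covers spot noise only.

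Most replication genes read modestly higher on the CKO array. A difference is the log2 signal of the CKO array minus that of the WT array, each after subtraction of the 75th percentile of its array. Of the 50 measured genes 43 lay above 0, against 50.9% of all measured genes. Of the 36 brighter ones 33 lay above 0, against 67.8% of all brighter genes. The median difference was 0.26, with an SD of 0.28 over genes, while the median of all measured genes was 0.0060 and that of all brighter genes was 0.082. No replication gene reached 2-fold in either direction (0 higher and 0 lower), and over all measured genes 1.02% were at least 2-fold higher and 5.86% at least 2-fold lower. Over all brighter genes these shares were 0.842% and 0.393%. At the smaller size of 1.2-fold, 24 replication genes were higher and 3 (Pole, Cdc6 and Pola2) were lower, or 21 and 1 of the 36 brighter ones. Over all measured genes 16.3% were at least 1.2-fold higher and 24.6% at least 1.2-fold lower, and among brighter genes these shares were 18.2% and 6.06%. The split of 24 to 3 became 16 to 6 when the 75th percentile was taken over measured probes. This lowered every gene by the same amount, to a median of all genes of -0.089. On that scale 9.91% of all genes passed the 1.2-fold limit upward and 30.5% downward. The split became 50 to 0 when arrays were scaled to their medians, a scaling that placed the median of all genes at 1.16. Both scalings shift all genes alike, so the 43 replication genes above the median of all genes could not change. That count was 39 under quantile normalization, 39 under lowess and 41 with the brightest probe of each gene. It was 34 of 42 with brighter probes alone, 43 after normexp and 45 of 52 without the filter on dim probes. Prim1, Gins1 and Tyms lay just under the 1.2-fold limit, at 0.26 each, and Dut and Rpa2 lay just over it, at 0.28 each. In whole-tissue RNA, more dividing cells and more transcript per dividing cell cannot be told apart.

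**Figure D1:**
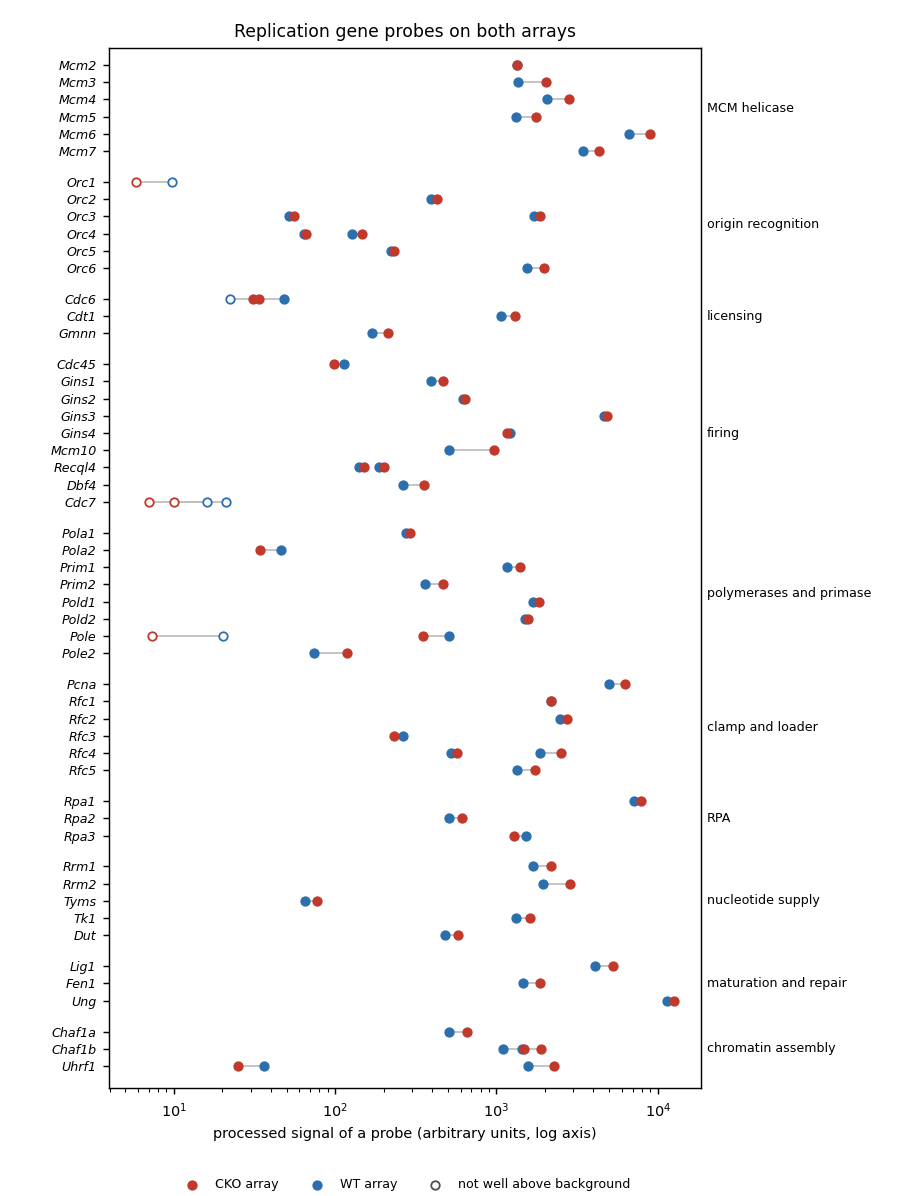
Processed signal (arbitrary units, log axis) of each replication gene probe on the CKO array (red) and the WT array (blue), by role, with open circles where a probe was not well above background. For most genes the red point lies to the right, as for Mcm3 at 2044 (CKO) against 1364 (WT), and for Pole it lies to the left, at 349 (CKO) against 508 (WT).

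Markers of other tissues also differed between the arrays, and their part in these differences was not tested. Retina and neuron markers were above 0 for 9 of 9 genes, against 50.9% of all measured genes, with a median of 0.58. Their summed signal was 7906 on the CKO array and 5371 on the WT array. Pou4f2 and Isl1, factors of retinal neurons, showed the largest differences of that list, 1.34 and 0.995. Mesenchyme markers had the highest median of the marker lists, 0.77 over 4 measured genes, with the collagen genes Col3a1 at 1.51 and Col1a1 at 1.05. Their sum, to which Pdgfra gave the most at 709 (CKO) and 725 (WT), was 1335 on the CKO array and 1003 on the WT array, and all 6 were above background on the CKO array against 4 on the WT array. The sums ran the other way for pigment and ciliary epithelium, at 5449 (CKO) and 6093 (WT), and for erythroid genes, at 12504 (CKO) and 15168 (WT). For endothelium the sums were 2615 (CKO) and 2680.1 (WT), and for macrophages 1289.7 (CKO) and 1370.5 (WT). Lens epithelium markers had a median of 0.070, with Foxe3 at 0.34 and Gja1 at -0.70.

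Short sequences related to E2F binding were found in the promoters of 27 of the 43 replication genes that could be searched. The RefSeq table for build GRCm38.p6 held promoter windows, each 250 bases before to 50 bases after a transcription start, for 43 of the 52 genes, 53 windows in all. The letters TTCCCGC, a core form of the E2F consensus, were searched on both strands together with the related forms TTCGCGC, then TTGGCGC, and also TTGCCGC, and overlapping matches were counted as 1 site. At least 1 of these forms was present in 31 of the 53 windows (58.5%), against 9.57% of all 32851 windows in the table and 15.2% of the 14421 windows of measured genes. The windows of the replication genes had a median GC content of 62.3%, against 60.0% for those of measured genes. Genes with and without a match covered overlapping ranges of difference. The 25 measured genes with a match had a median difference of 0.29, from -0.50 to 0.68, and 14 of them were at least 1.2-fold higher. The 16 without a match had a median of 0.21, from -0.41 to 0.95, and 7 of them were at least 1.2-fold higher. Over all measured genes this share was 16.3%.

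Stretches of 100 bases from 6 of these promoters are shown to set genes that were higher beside genes that were not, with the matched letters in capitals. All lie before the transcription start, and each is read 5′ to 3′ on the strand of the gene. Mcm6, Mcm5, Chaf1a and Rrm1 were each more than 1.2-fold higher on the CKO array. Gins3 and Rpa3 carry the same kind of letters and read near 0 and below 0. The Mcm6 stretch is the minus strand of chr1:128359729-128359828 and Mcm5 the plus strand of chr8:75109306-75109405. Chaf1a is the plus strand of chr17:56040316-56040415 and Rrm1 the plus strand of chr7:102441581-102441680. Gins3 is the plus strand of chr8:95633459-95633558 and Rpa3 the minus strand of chr6:8259142-8259241, all in GRCm38.p6.
Mcm6: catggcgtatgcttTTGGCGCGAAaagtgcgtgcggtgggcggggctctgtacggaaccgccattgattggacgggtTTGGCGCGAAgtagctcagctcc
Mcm5: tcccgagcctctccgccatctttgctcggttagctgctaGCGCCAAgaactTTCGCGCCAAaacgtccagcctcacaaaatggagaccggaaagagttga
Chaf1a: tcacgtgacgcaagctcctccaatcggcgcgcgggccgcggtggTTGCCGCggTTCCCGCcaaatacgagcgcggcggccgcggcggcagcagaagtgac
Rrm1: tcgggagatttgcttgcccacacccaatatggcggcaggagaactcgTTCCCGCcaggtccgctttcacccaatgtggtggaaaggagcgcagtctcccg
Gins3: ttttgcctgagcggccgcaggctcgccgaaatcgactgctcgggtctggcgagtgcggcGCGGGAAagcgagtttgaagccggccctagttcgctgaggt
Rpa3: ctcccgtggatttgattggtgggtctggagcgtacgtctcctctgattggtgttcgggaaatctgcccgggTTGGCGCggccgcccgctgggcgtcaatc
In Mcm6 both sites are the letters of 2 forms that overlap, and a further site of its window lies outside the stretch.

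The MCM helicase, the ring that unwinds DNA, had a median difference of 0.43 over its 6 genes. Of these, 5 were at least 1.2-fold higher and 0 lower, against 18.2% and 6.06% of all brighter genes. The median was the highest role median here, but under quantile normalization licensing stood at 0.43 and the helicase at 0.35. Mcm3 read 2044 on the CKO array and 1364 on the WT array, a difference of 0.60 with a spot SD of 0.12. Mcm4 read 2825 on the CKO array and 2048 on the WT array, a difference of 0.48. Mcm6, whose promoter holds the paired sites shown above, read 8907 on the CKO array and 6649.7 on the WT array, a difference of 0.44. These 3 differences were between 4.89 and 5.72 times the spot SD. Mcm5 differed by 0.43 at 1772 (CKO) and 1329 (WT), and Mcm7 by 0.33 at 4304 (CKO) and 3459 (WT). Mcm2 stood apart from its partners in the ring, at 1335 on the CKO array and 1333 on the WT array. Its difference was 0.016, smaller than the spot SD of 0.12. Mcm2 was among the 16 measured genes without E2F letters in their windows, of which 7 were at least 1.2-fold higher, against 16.3% of all measured genes. Whether the letters bear on these differences was not tested.

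**Figure D2:**
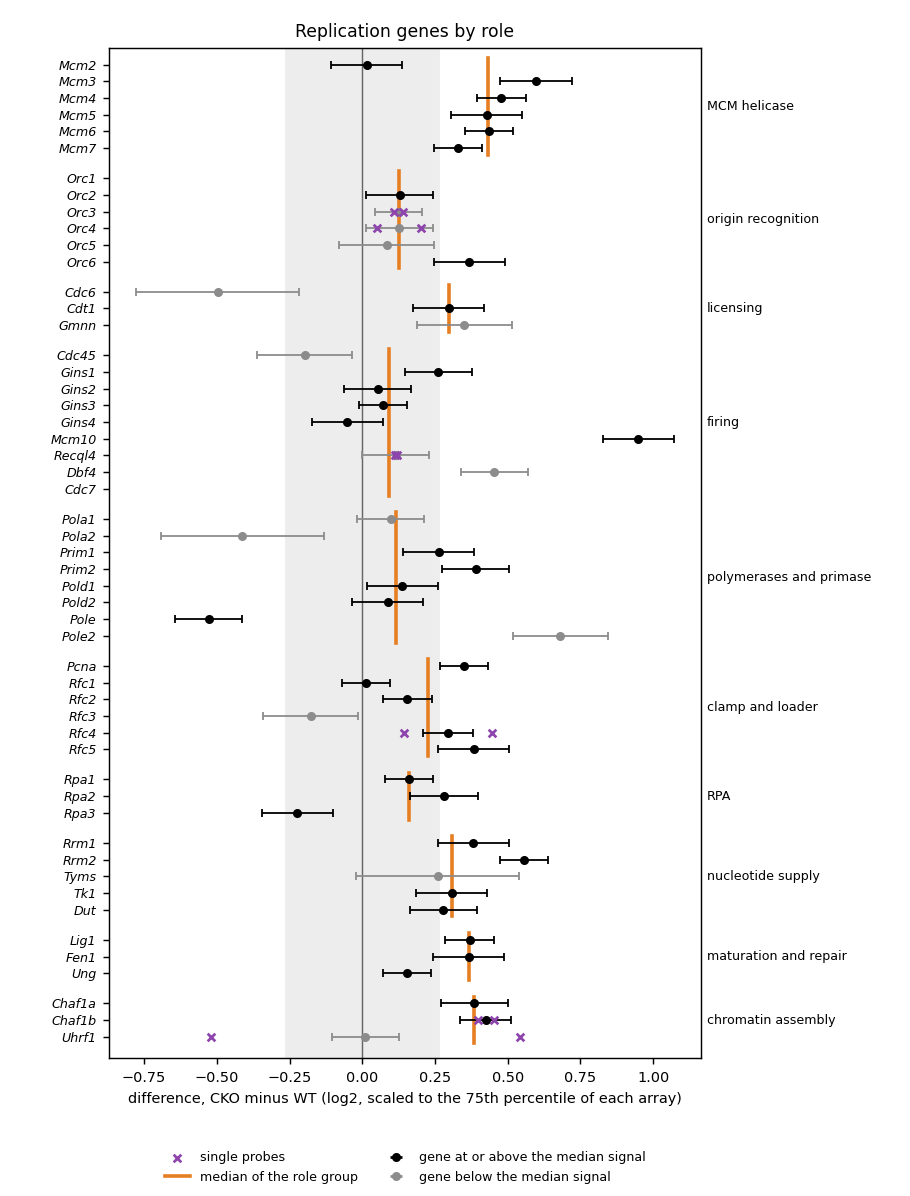
Difference of each measured replication gene, CKO minus WT on the log2 scale, by role. Bars are 1 spot SD, crosses are single probes of genes with several measured probes, orange lines are role medians and the grey band holds differences under 1.2-fold, with Mcm10 farthest right at 0.95 and Pole farthest left at -0.53.

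The origin recognition complex, which marks origins and loads the helicase, had a lower median of 0.13 over 5 measured genes. All 5 lay above 0, against 50.9% of all measured genes. Only Orc5 fell below 0 under another setting, at -0.011 with the 75th percentile over measured probes, which lowered every gene by the same amount. Orc6 passed 1.2-fold, at 1983 on the CKO array and 1551 on the WT array, a difference of 0.37. Under quantile normalization Orc6, at 0.25, fell short of that limit and Orc3 and Orc4 passed it, at 0.48 and 0.54, and under lowess all 3 passed it. Orc2 read 428 on the CKO array and 395 on the WT array. Orc3 was read by 2 probes that gave 0.11 and 0.14, the brighter at 1856 (CKO) and 1699 (WT). Orc4 had 2 probes at 0.20 and 0.051, and Orc5 lay at 0.084. None of the differences of Orc2 to Orc5 reached 2 spot SD. Orc1, the subunit whose level cycles with cell division in mammals, was not well above background on either array, at 5.84 (CKO) and 9.69 (WT).

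Of the licensing factors, Cdt1 and its inhibitor Gmnn were both higher. Cdt1, which brings the helicase to origins, read 1296 on the CKO array and 1064 on the WT array, a difference of 0.30. Gmnn, geminin, read 213 on the CKO array and 169 on the WT array, a difference of 0.35. Cdc6, the loading ATPase, was dim and its probes disagreed. The probe measured on both arrays read 34.0 on the CKO array and 48.4 on the WT array, a difference of -0.50 with a spot SD of 0.28. The other probe read 31.0 on the CKO array, where it was above background, and 22.2 on the WT array, where it was not. The direction of Cdc6 changed under quantile normalization, lowess, array medians and without the filter on dim probes.

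Among the genes that switch the helicase on, Mcm10 had the largest difference of all measured replication genes as reported here, though Pole2 lay above it under quantile normalization, at 1.12 against 0.88, and level with it under lowess, at 0.88 against 0.87. Mcm10, which helps to open the loaded helicase, read 971 on the CKO array and 508 on the WT array. The difference was 0.95, or 1.93-fold, with a spot SD of 0.12, and lay between 0.76 and 1.11 above the median of all genes under the 10 settings tried. It exceeded the differences of 98.9% of all brighter genes. Its promoter window held none of the E2F letters. Dbf4, the activating subunit of the kinase Cdc7, read 356 on the CKO array and 262 on the WT array, a difference of 0.45. Cdc7 itself was not well above background on either array with either probe, at 9.99 and 7.05 on the CKO array and 16.1 and 21.0 on the WT array. Cdc45, which forms the active helicase with MCM and GINS, read 98.7 on the CKO array and 114 on the WT array, and its difference of -0.20 was 1.21 times the spot SD in size and 0.084 under quantile normalization.

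Of the GINS subunits, which bind the MCM ring, 3 lay close to 0 and Gins1 lay near the median of all replication genes. Gins2 differed by 0.053, at 639 on the CKO array and 621 on the WT array. Gins3 differed by 0.071, at 4858 (CKO) and 4669 (WT), and Gins4 by -0.051, at 1156 (CKO) and 1209 (WT), and none of these 3 values exceeded the spot SD. Gins1 read 468 on the CKO array and 394 on the WT array, a difference of 0.26 or 2.27 times the spot SD. The median of the 4 genes was 0.062, and it was -0.033, -0.012 and -0.015 with the 75th percentile over measured probes, quantile normalization and lowess. Recql4, a helicase that acts at firing, gave 0.11 and 0.12 with 2 probes. The median of all 8 measured firing genes was 0.093, and -0.0018 with the 75th percentile over measured probes. That setting lowered every gene by the same amount. Relative to the median of all genes, the firing and GINS medians were 0.087 and 0.056 under both of these scalings, as a constant shift cannot change them. Over all settings tried, the relative median ran from 0.061 to 0.23 for firing and from -0.083 to 0.22 for GINS. The relative GINS median was -0.083 under quantile normalization, -0.037 under lowess and -0.021 with brighter probes alone.

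The polymerases split more widely than any other role group but the licensing factors, with an SD of 0.40 over 8 genes and a median of 0.12. Pole, the catalytic subunit of the leading-strand polymerase epsilon, read 349 on the CKO array and 508 on the WT array. Its difference was -0.53, or 1.44-fold lower, with a spot SD of 0.12, and its second probe was not above background. Relative to the median of all genes Pole lay between -0.83 and -0.50 under the 10 settings, and it was the only brighter replication gene at least 1.2-fold lower as reported here. Pole2, the partner subunit of the same polymerase, went the other way, at 118 on the CKO array and 74.5 on the WT array. Its difference was 0.68 with a spot SD of 0.16, in a range of signal where the nearest spike-in read lower on the CKO array. The difference of Pole2 depended on the processing, at 0.31 after normexp and 1.12 under quantile normalization.

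Polymerase alpha and primase, which lay down the starting primers, and polymerase delta, which copies the lagging strand, differed less. Prim2 read 468 on the CKO array and 361 on the WT array, a difference of 0.39. Prim1 read 1391 on the CKO array and 1171 on the WT array, a difference of 0.26. The catalytic subunit gene Pola1 lay at 0.097, at 293 (CKO) and 276 (WT). Pola2, the accessory subunit, read 34.3 on the CKO array and 46.1 on the WT array, a dim reading with a difference of -0.41 and a spot SD of 0.28, and it turned above 0 under quantile normalization, lowess and array medians. Pold1 and Pold2 lay at 0.14 and 0.087, within 2 spot SD.

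**Figure D3:**
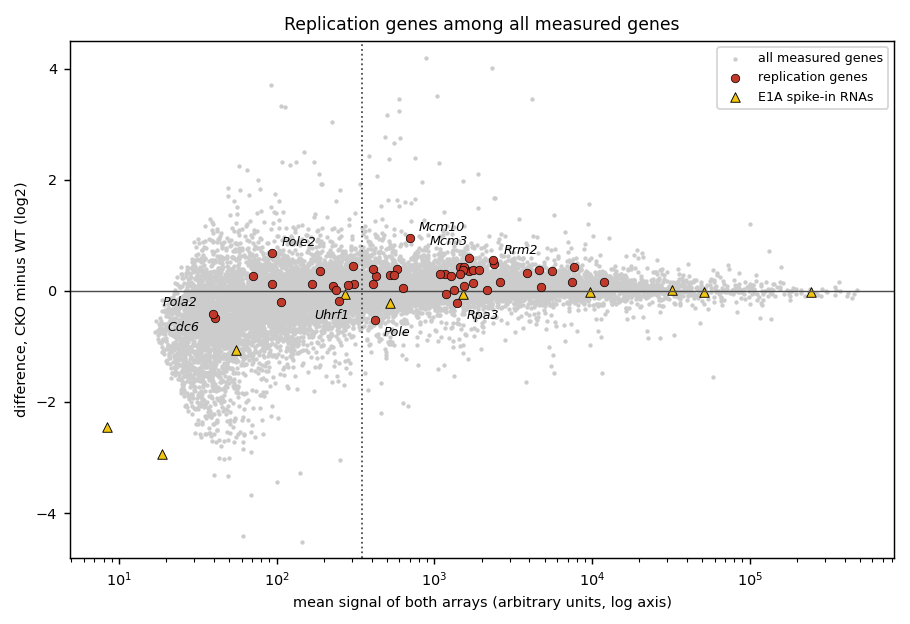
Difference (CKO minus WT, log2) against the mean signal of both arrays (log axis) for all measured genes (grey), replication genes (red) and spike-in RNAs (yellow triangles), with the median signal as a dotted line. Mcm10 and Pole mark the extremes among replication genes right of the line, at 0.95 and -0.53, and the dimmest spike-ins drop to -2.46 and -2.93.

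The sliding clamp and its loader had a median difference of 0.22. Pcna, the clamp, read 6278 on the CKO array and 4972 on the WT array, a difference of 0.35 with a spot SD of 0.083. Rfc5 read 1736 on the CKO array and 1344 on the WT array, a difference of 0.38. Rfc4 averaged 0.29 over 2 probes at 0.45 and 0.14. The large subunit gene Rfc1 was level, at 2169 (CKO) and 2171 (WT), a difference of 0.013. Rfc2 lay at 0.15, and Rfc3 at -0.18 with readings of 232 (CKO) and 265 (WT). The 5 loader subunits thus ranged from -0.18 to 0.38, and 2 of them were at least 1.2-fold higher, against 16.3% of all measured genes.

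The RPA subunits, which form a trimer on single-stranded DNA, differed in direction. Rpa2 read 609 on the CKO array and 506 on the WT array, a difference of 0.28. Rpa1 lay at 0.16, at 7908 (CKO) and 7144 (WT). Rpa3, whose promoter stretch is printed above, read 1292 on the CKO array and 1522 on the WT array, a difference of -0.22, or 1.83 times the spot SD.

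Genes of nucleotide supply all lay above 0, against 50.9% of all measured genes and 67.8% of all brighter genes, with a median of 0.31. At least 1.2-fold higher were 4 of 5, against 16.3% of all measured genes and 18.2% of all brighter genes. Tk1 and Dut fell short of that limit under quantile normalization, at 0.20 and 0.22, and under lowess, at 0.21 and 0.22. They also did so with the 75th percentile over measured probes, at 0.21 and 0.18. Rrm2, the limiting subunit of ribonucleotide reductase, read 2852 on the CKO array and 1958 on the WT array, a difference of 0.56 or 6.67 times the spot SD. Rrm1, the large subunit, differed by 0.38, at 2177 (CKO) and 1686 (WT). Tk1, thymidine kinase, differed by 0.31, at 1622 (CKO) and 1323 (WT). Dut, which removes dUTP from the nucleotide pool, lay at 0.28, at 578 (CKO) and 481 (WT). Tyms, thymidylate synthase, was dim at 77.2 (CKO) and 65.1 (WT), and its difference of 0.26 was under its spot SD of 0.28. The difference of Tyms depended on the processing, at 0.86 under quantile normalization, 0.55 under lowess and 0.16 after normexp.

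Of 6 genes of strand maturation, repair and chromatin assembly 4 were at least 1.2-fold higher, against 16.3% of all measured genes. After normexp Lig1 and Chaf1a, at 0.15 and 0.17, no longer passed that limit. Lig1, the ligase that seals lagging-strand fragments, read 5252 on the CKO array and 4107 on the WT array, a difference of 0.37. Fen1, the nuclease that trims those fragments, read 1867 on the CKO array and 1463 on the WT array, also 0.37. Ung, which removes uracil from DNA, lay at 0.15, at 12589 (CKO) and 11422 (WT). The subunits of the histone chaperone CAF-1 were close to each other. Chaf1a read 659 on the CKO array and 509 on the WT array, a difference of 0.39, and Chaf1b averaged 0.42 over probes at 0.45 and 0.40. Uhrf1, which guides maintenance of DNA methylation, was read by 2 probes that disagreed. The brighter read 2272 on the CKO array and 1575 on the WT array, a difference of 0.54. The dim one read 24.9 on the CKO array and 36.1 on the WT array, a difference of -0.52, so that the mean was 0.011 with an SD of 0.75 over probes.

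**Figure D4:**
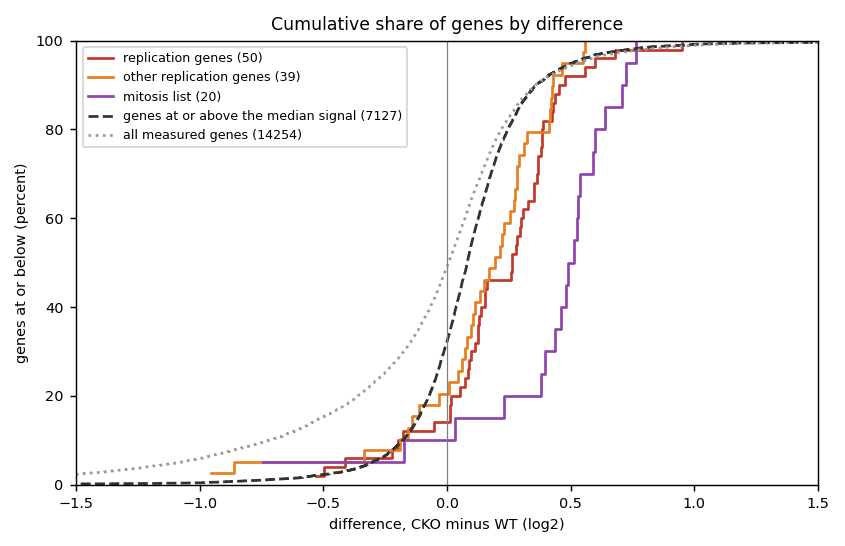
Cumulative percent of genes at or below each difference (CKO minus WT, log2) for the replication genes, other replication genes, a mitosis list and all genes, with the number of genes in brackets. The replication genes, median 0.26, lie right of all brighter genes (dashed), median 0.082, over most of their range and left of the mitosis list, median 0.50.

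A further set of replication genes outside the list was also read. Of 41 such genes 39 were measured, 31 lay above 0, 15 were at least 1.2-fold higher and 3 lower, and the median was 0.19. Over all measured genes 50.9% lay above 0, 16.3% were at least 1.2-fold higher and 24.6% at least 1.2-fold lower, shares that also stand beside the mitosis counts. Donson, a replication fork protein, differed by 0.56, the topoisomerase gene Top2a by 0.55, and Ticrr, which helps to fire origins, by 0.47. The lowest were Mcm9, a helicase of DNA repair, at -0.95 and the checkpoint adaptor Clspn at -0.86, both dim at 44.9 and 18.7 on the CKO array. Ssrp1, a histone chaperone subunit, averaged -0.34 over 2 probes, although the brighter read 6103 on the CKO array and 4998 on the WT array. A mitosis list of 21 genes, of which 20 were measured, had a median of 0.50, with 18 above 0, 16 at least 1.2-fold higher and 1 lower. Cdc20, which activates the complex that triggers anaphase, differed by 0.76, and the dim kinase gene Ttk by -0.75. The difference between the replication and mitosis medians was not tested.

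**Figure D5:**
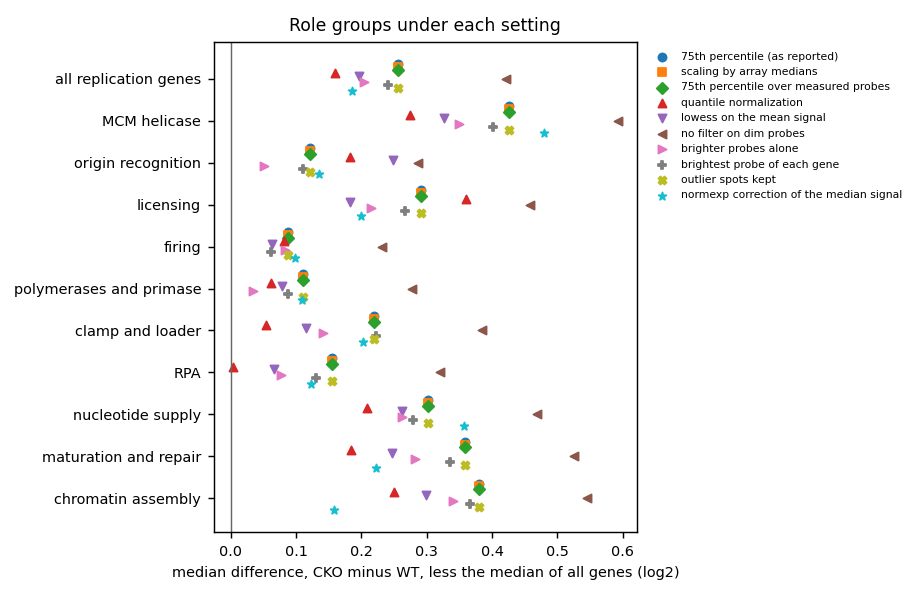
Median difference (CKO minus WT, log2) of all replication genes and of each role group, less the median of all measured genes, under 10 ways of processing. The median of all replication genes lay between 0.16 and 0.42 and that of the MCM helicase between 0.27 and 0.59. The lowest value plotted is that of RPA under quantile normalization, 0.0035. The GINS genes alone and the Rfc genes alone are not plotted, and in that setting they stood at -0.083 and -0.033.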

How the data were processed

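The deposited values are linear spot intensities written by the scanner software. Per the file headers, this was Agilent Feature Extraction 10.7.3.1 on an array design annotated to mm9, with background already subtracted and no scaling between arrays. Flags for outliers and for a signal well above background are deposited yes or no values. Control spots were dropped, as were those marked as outliers on one array or the other. The log2 of the processed signal, less the 75th percentile of the array over all gene spots, was averaged over the spots of a probe. Measured probes had over 50% of their spots well above background on each array, and a gene was the mean of its measured probes. Accessions were matched to GRCm38.p6 RefSeq symbols for 27225 of 55655 probes, and all 52 listed genes matched. Spot SD was pooled within 5 classes of signal from 281 probes printed at least 5 times, and divided by the square root of the number of measured probes of a gene. The fold limits of 2 and 1.2 stand in for a test, as each group had 1 array. Every listed gene could be named; of other lists, only those with the largest differences (up to 3 in each direction for other replication genes, up to 2 for markers and mitosis), and further genes named were chosen after their values were seen. The members and lists were chosen with earlier results of these data known. The steps were tested on simulated data. Python 3.11.15, statsmodels 0.14.6 (lowess, span 0.3) and limma 3.58.1 (normexp, offset 50) were used. Precision is limited by the number of arrays.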

Additional observations from a re-analysis of the deposited data

How the results depend on the processing

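The median difference of the replication genes stayed above 0 under all 9 alternatives, and relative to the median of all genes it lay between 0.16 and 0.42. Scaling by array medians raised every value by the same amount, giving a median of 1.41 beside a median of all genes of 1.16. It placed 44 replication genes at least 2-fold higher, 50 at least 1.2-fold higher and 0 at least 1.2-fold lower. The median of all genes, 1.16, itself lay over the 2-fold limit, which is 1 on the log2 scale. Over all measured genes 92.6% were at least 1.2-fold higher and 2.69% at least 1.2-fold lower under this scaling. The role medians then became 1.58 for the MCM helicase, 1.28 for origin recognition, 1.45 for licensing, 1.25 for firing, 1.27 for polymerases, 1.38 for clamp and loader, 1.31 for RPA, 1.46 for nucleotide supply, 1.52 for maturation and repair, 1.54 for chromatin assembly, 1.21 for GINS and 1.31 for the Rfc genes, and Cdc6, Pola2 and Pole turned to 0.66, 0.74 and 0.62. Cdc6 and Pola2 also turned above 0 under quantile normalization (0.51 and 0.62) and lowess (0.015 and 0.11), and Cdc6 without the filter on dim probes (0.00044). Quantile normalization placed 1 gene, Pole2, at least 2-fold higher, and the absence of a filter 1 at least 2-fold lower. The shares of all genes at 2-fold under these alternatives are not given here. The count at least 1.2-fold lower was 6 with the 75th percentile over measured probes, which lowered every value by the same amount. It was 1 over the brighter probes and 1 after normexp, where the median for chromatin assembly fell to 0.17. Over all genes of these settings the shares at least 1.2-fold lower were 30.5%, 7.10% and 16.9%. The causes were not tested, apart from the constant shifts. Keeping outlier spots changed none of the 50 genes. Normexp was planned on the mean spot signal, a column the files do not hold, so it was run on the median signal, a choice made after seeing the data. No paired analysis was possible because each group had 1 array. Signal over background limits the readings of Cdc6, Pola2, Tyms, Orc1 and Cdc7.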

Other observations

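Across the 50 measured replication genes the difference and the mean signal had a Pearson r of 0.35, a description over genes that share both arrays. Other promoter letters were searched on both strands of the same windows. The CCAAT box letters CCAAT were present in 52.8% of replication gene windows and 37.4% both of all windows and of windows of measured genes, and the GC box letters GGGCGG in 75.5% and 35.7%, or 58.6% for windows of measured genes. The letters TTTGAA, the cell cycle homology element of many mitotic genes, were present in 15.1% of replication gene windows and 17.9% of all windows, or 12.4% for windows of measured genes. The E-box letters CACGTG were present in 15.1% of replication gene windows, 7.15% of all windows and 9.40% of windows of measured genes. Of the 52 genes, 43 were read by 1 probe and 9 by 2, so most differences rest on a single oligonucleotide.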
